A study of Mus musculus with 4 samples.

Results

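The MYC and MAX network was followed in mouse T helper 2 (Th2) cells through 10 genes chosen by name from the deposited table of 54532 genes: Myc, Mycn, Max, Mxd1, Mxd4, Mxi1, Mnt, Mga, Mlx and Mlxip. All 10 were found once in the table, and all 10 passed the filter on low counts, as did 14316 genes in all. Mycn passed it through the DMSO libraries alone. RNA was sequenced in 4 libraries. In 2 of them wild-type naive CD4+ T cells had been polarised towards Th2 with HU-308, a synthetic agonist selective for cannabinoid receptor 2, and in the other 2 with DMSO, the solvent control. All cells were restimulated through CD3 and CD28 with beads on day 4 and collected 12 h later, and the labels place them in the bleomycin-induced model of systemic sclerosis, a fibrotic autoimmune disease. No group lacked the receptor, so effects through it and other effects of HU-308 cannot be told apart. Whether the replicates are separate mice, cultures or only library preparations is not labelled, so p-values reflect the spread of these 4 libraries alone, and that spread may be technical.

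The MYC proteins are transcription factors that bind DNA as dimers with MAX, mostly at the E-box CACGTG, and drive ribosome production, metabolism and cell growth. MXD proteins, MXI1 and MNT take the place of MYC beside MAX at the same sites and recruit the SIN3 corepressor, while MGA pairs with MAX in a variant Polycomb complex. MLX is a second hub that pairs with MLXIP (MondoA), a sensor of glucose-derived sugar phosphates, and with some MXD proteins and MNT. In T cells MYC is induced by antigen receptor and cytokine signals and is needed for growth after activation, whereas most MXD genes are typical of resting or differentiating cells.

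Libraries held 16145298 to 20479254 counts and 20525 to 21319 detected genes. The CD4 T cell markers were well expressed, with Cd4 at 401.0 to 576.4 CPM (counts scaled to a common library size with TMM factors) and Cd3e at 164.0 to 226.9 CPM. The 4 Th2 markers, Gata3 and the cytokines Il4, Il5 and Il13, summed to 550.3 and 557.5 CPM with DMSO and to 399.0 and 314.5 CPM with HU-308, mostly Gata3. All 4 were lower at an unadjusted edgeR p under 0.05, against 9.97% of all tested genes, with a median log2 fold change of −2.46 and a range of −3.69 to −0.51. The cytokine genes Il5 and Il13 fell and passed the edgeR threshold, with all 4 libraries and without each in turn. Il5 went from 10.9 and 13.2 to 1.13 and 0.948 CPM (a log2 fold change of −3.53 ± 0.29 SE, edgeR adjusted p = 0.0389), and Il13 from 20.5 and 30.1 to 2.44 and 1.48 CPM (−3.69 ± 0.35 SE, edgeR adjusted p = 0.0389). Il4 had a log2 fold change of −1.40 ± 0.18 SE (edgeR adjusted p = 0.0594) and Gata3 one of −0.51 ± 0.16 SE (edgeR adjusted p = 0.192). DESeq2 called the 3 cytokine genes lower, against 3.81% of its tested genes. These markers were lower in the same libraries as Myc, and their part in the results below was not tested. The 2 CD8 T cell markers summed to 12.1 to 13.8 CPM and the 4 B cell markers to 3.29 to 7.11 CPM, with no separation of the groups. Of the 3 NK cell markers, 1 read was found over the 4 libraries, and Klrb1c and Klra8 were at 0. Of the 5 myeloid markers, Lyz2 was at 0 and Csf1r had 1 read, and nearly all of the summed 27.2 to 74.4 CPM was Adgre1. The 9 mitochondrial transcripts summed to 19653 and 15088 CPM with DMSO and to 13977 and 11460 CPM with HU-308. That is the same order of libraries as for Myc below, and its part in the results was not tested. Over all genes, edgeR's quasi-likelihood test called 12 genes higher and 33 lower with HU-308 at an adjusted p (Benjamini-Hochberg) under 0.05, or 73.3% on the lower side. Scaled by library size only, 8 and 12 were called, or 60.0% on the lower side.

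Myc transcript was lower, and Mxd4 and Mnt transcript higher, in both HU-308 libraries than in either DMSO library, but no member passed the edgeR threshold. By that test 0 of 10 members were called higher, against 0.0838% of all tested genes, and 0 of 10 lower, against 0.231%. At an unadjusted edgeR p under 0.05, 2 members were higher (Mxd4 and Mnt, against 8.79% of all tested genes) and 3 lower (Myc, Mxi1 and Mga, against 9.97%). DESeq2 gave 9 members an adjusted p, all but Mycn, and called 1 of these higher, Mxd4, against 1.92% of its tested genes, and 1 lower, Myc, against 3.81%. The authors' deposited table held the same calls at its adjusted p, Mxd4 among 1.06% of genes called higher and Myc among 2.07% called lower. Both HU-308 libraries lay above both DMSO libraries for 2 members, against 25.9% of all tested genes. They lay below for 4 of the 9 members other than Mycn, against 25.4%. The median log2 fold change of these 9 was −0.24, beside 0.02 for all tested genes, with 7 values below 0. Leaving out replicate 1 or 2 of DMSO gave −0.43 or −0.02, and leaving out replicate 1 or 2 of HU-308 gave 0.0038 or −0.35, so neither its size nor its sign held when single libraries were left out. In bulk RNA, fewer cells of a type and less RNA per cell cannot be told apart.

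**Figure D1:**
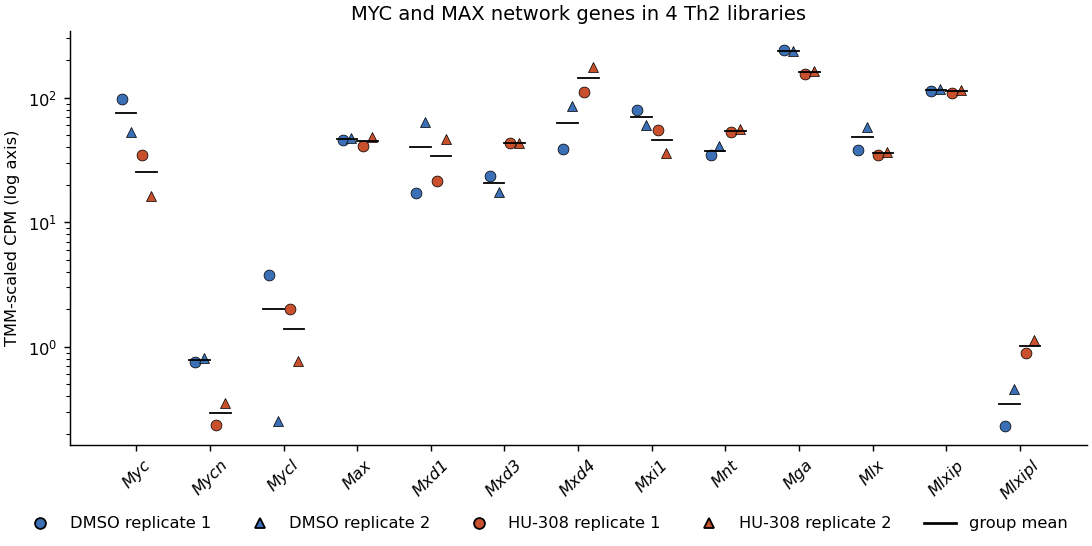
TMM-scaled CPM (log axis) of the 10 members and of Mycl, Mxd3 and Mlxipl in each of the 4 libraries, with group means as bars. Myc lies lower and Mxd4 higher in both HU-308 libraries, and the replicates of either gene stand far apart from each other.

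Myc (ENSMUSG00000022346, chromosome 15, 61985391 to 61990374 of GRCm38, plus strand) encodes the MYC protein that dominates in activated T cells. It had 97.4 and 52.9 CPM with DMSO and 34.7 and 16.3 CPM with HU-308. The groups did not overlap, yet replicate 1 was 1.84-fold above replicate 2 with DMSO and 2.12-fold above it with HU-308. The mean was 75.1 ± 31.5 CPM (SD, n = 2) with DMSO and 25.5 ± 13.0 CPM with HU-308, a 2.94-fold difference (log2 fold change −1.56 ± 0.43 SE, 95% interval −2.63 to −0.48, edgeR adjusted p = 0.159). DESeq2 gave Myc an adjusted p of 0.000701, and the authors' deposited table gave 0.000688. Without DMSO replicate 2 or without HU-308 replicate 1 Myc passed the edgeR threshold (log2 fold changes −1.93 and −2.20, adjusted p = 0.0256 and 0.0314). It was at −1.07 in the fit that left out DMSO replicate 1 and at −1.11 in the fit that left out HU-308 replicate 2 (edgeR adjusted p = 0.262 and 0.323). Such fits estimate the spread from the remaining pair of replicates only, and a pass in them alone was not taken as a call.

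The other MYC genes were scarce. Mycn, best known from neural and embryonic tissue, had 13 and 16 reads with DMSO and 4 and 6 with HU-308. Since it entered the test through its DMSO counts, no test is given for it. Mycl, which is outside the 10, had 65 and 5 reads with DMSO and 34 and 13 with HU-308. Its replicates differed 14.7-fold with DMSO, far more than the groups did. Pvt1, the long noncoding RNA gene next to Myc (chromosome 15, 62037986 to 62378096), was at 10.7 and 6.64 CPM with DMSO and at 9.74 and 9.30 CPM with HU-308, where the groups overlapped (0.14 ± 0.29 SE, edgeR adjusted p = 0.828).

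Max (ENSMUSG00000059436, chromosome 12, 76937269 to 76962201) encodes the shared partner. It had 45.7 and 47.8 CPM with DMSO and 41.3 and 48.9 CPM with HU-308. The groups overlapped, and the log2 fold change was −0.05 with a 95% interval of −0.43 to 0.33. A difference within that range is not excluded by these libraries.

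Among the partners that oppose MYC, Mxd4 and Mnt were higher with HU-308 and Mxi1 was lower. Mxd4 (ENSMUSG00000037235, chromosome 5, 34173883 to 34187720) had 38.9 and 86.8 CPM with DMSO and 111.2 and 175.6 CPM with HU-308. Both HU-308 libraries lay above both DMSO libraries, and replicate 2 was above replicate 1 in either group, by 2.23-fold and 1.58-fold. Its log2 fold change was 1.19 ± 0.41 SE (95% interval 0.17 to 2.21, edgeR adjusted p = 0.218; DESeq2 adjusted p = 0.0127). It was 1.88 without DMSO replicate 2 (edgeR adjusted p = 0.0160). Leaving out DMSO replicate 1 gave 0.70 and leaving out HU-308 replicate 2 gave 0.82 (edgeR adjusted p = 0.316 and 0.515).

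Mnt (ENSMUSG00000000282, chromosome 11, 74830920 to 74845725), a broadly expressed repressor, had 34.6 and 40.8 CPM with DMSO and 53.0 and 56.2 CPM with HU-308. The groups were apart and each was tight, and the difference was 1.45-fold (log2 fold change 0.53 ± 0.15 SE, 95% interval 0.15 to 0.91, edgeR adjusted p = 0.166). Mxi1 (ENSMUSG00000025025, chromosome 19, 53310506 to 53375810), also called Mxd2, went the other way, with 80.4 and 61.0 CPM with DMSO and 55.4 and 36.01 CPM with HU-308. Its highest HU-308 value came close to its lowest DMSO value (log2 fold change −0.63 ± 0.25 SE, edgeR adjusted p = 0.264). Leaving out HU-308 replicate 2 gave −0.35, with an edgeR adjusted p of 0.704, and leaving out HU-308 replicate 1 gave −0.97, with one of 0.169.

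Mxd1 (ENSMUSG00000001156, chromosome 6, 86647042 to 86669161), the founding MXD gene, showed the widest replicate spread of the 10. It had 17.1 and 63.9 CPM with DMSO and 21.5 and 47.2 CPM with HU-308. The HU-308 values lay within the DMSO range, and the sign of the log2 fold change depended on the libraries used (−0.24 ± 0.65 SE with all 4, 1.0 when DMSO replicate 2 was left out, 0.22 when HU-308 replicate 1 was; edgeR adjusted p = 0.875, 0.235 and 0.905). Adgre1, listed with the myeloid markers, was high in the same libraries, at 37.3 and 74.1 CPM with DMSO and 26.4 and 59.4 CPM with HU-308, and its part in the spread of Mxd1 was not tested.

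Mxd3, the MXD gene outside the 10 that is linked to dividing cells, gave the smallest edgeR p of the whole family. It had 23.6 and 17.5 CPM with DMSO and 43.3 and 43.2 CPM with HU-308. The groups were well apart, with a 2.11-fold difference (log2 fold change 1.08 ± 0.20 SE, 95% interval 0.59 to 1.56, edgeR adjusted p = 0.0908; DESeq2 adjusted p = 0.00222). Its counts are less certain, since 4.43% of its exon bases overlap Prelid1 on the opposite strand, a gene with 25839 reads against 2209 of Mxd3, and strand use is not given in the sources used here. The dividing-cell genes (Mki67, Top2a and 8 others) summed to 6378 and 4953 CPM with DMSO and to 6126 and 5114 CPM with HU-308, where the groups overlapped.

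Mga (ENSMUSG00000033943, chromosome 2, 119897228 to 119969581), the giant MAX partner of the Polycomb complex PRC1.6, had the smallest edgeR p of the 10 members. It was at 242.2 and 237.5 CPM with DMSO and at 155.3 and 164.7 CPM with HU-308. The groups were far apart next to the spread within them, with means of 239.8 ± 3.34 and 160.0 ± 6.60 CPM (log2 fold change −0.58 ± 0.13 SE, 95% interval −0.90 to −0.27, edgeR adjusted p = 0.112; DESeq2 adjusted p = 0.0627). Leaving out any single library kept its log2 fold change between −0.63 and −0.54. Of the 10 genes listed for PRC1.6 beside Mga, none was called by edgeR. Only 1, Rybp, or 10%, was lower at an unadjusted edgeR p under 0.05, near the 9.97% of all tested genes. DESeq2 called the same gene lower, against 3.81% of its tested genes. Rybp, a subunit of this and other PRC1 complexes, went from 34.2 ± 7.47 to 14.2 ± 0.349 CPM (edgeR adjusted p = 0.0804, log2 fold change −1.27 ± 0.21 SE). Ring1, Wdr5 and Cbx3 had log2 fold changes of 0.31, −0.29 and −0.27, and the median of the list was −0.09.

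In the MLX branch, Mlxip (ENSMUSG00000038342, chromosome 5, 123394798 to 123457932) had 112.6 and 118.7 CPM with DMSO and 109.8 and 115.8 CPM with HU-308. The groups overlapped, and the 95% interval of the log2 fold change ran from −0.35 to 0.28. Mlx (ENSMUSG00000017801, chromosome 11, 101087277 to 101092207) had 38.4 and 58.4 CPM with DMSO and 34.8 and 37.1 CPM with HU-308. The gap between the groups was small and DMSO replicate 2 stood alone (log2 fold change −0.43 ± 0.23 SE, edgeR adjusted p = 0.364, −0.09 without that library and −0.72 without DMSO replicate 1). Of the exon bases of Mlx, 19.3% overlap Psmc3ip on the opposite strand, a gene with 575 reads against 3022, so its counts are less certain. Mlxipl, which encodes the liver glucose sensor ChREBP, had 4 and 9 reads with DMSO and 15 and 19 with HU-308, and it passed the low-count filter through the HU-308 libraries alone.

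Of 4 genes induced by MondoA and MLX, 3 were tested, and in each both HU-308 libraries lay above both DMSO libraries, as they did for 25.9% of all tested genes. None was called by edgeR or DESeq2, and 1, Txnip, had an unadjusted edgeR p under 0.05, against 8.79% of all tested genes on the higher side. Txnip, an inhibitor of glucose uptake, had 140.4 and 192.9 CPM with DMSO and 225.1 and 291.9 CPM with HU-308 (log2 fold change 0.63 ± 0.21 SE, edgeR adjusted p = 0.212). The log2 fold change was 0.74 ± 0.32 SE for its relative Arrdc4 and 0.22 ± 0.14 SE for the transcription factor gene Klf10. Pklr was at 0 in every library.

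**Figure D2:**
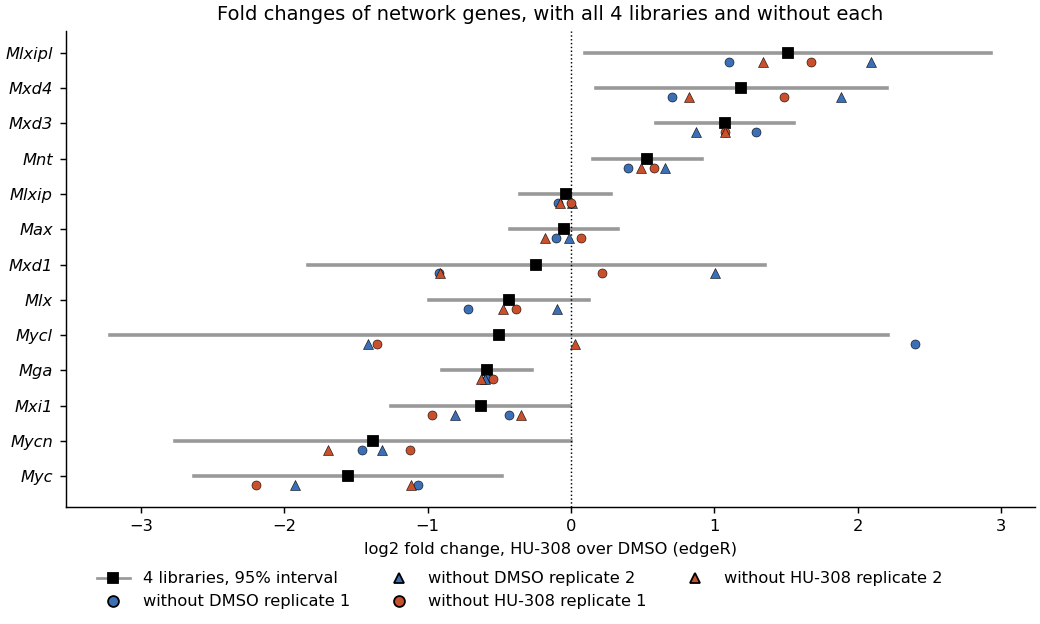
Log2 fold change, HU-308 over DMSO, of each network gene from edgeR with its 95% interval (black squares, grey bars), and the same without each library (coloured points). Myc, Mxd4, Mnt and Mga stay on their side of 0 in every case, and Mga varies little. Mxd1 and Mycl cross 0, as do Max and Mlxip, which lie close to it. Mycn and Mlxipl entered the test through 1 group alone, so their squares, bars and points are drawn for completeness and are not read as a test.

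Between genes, levels were compared per length, in the authors' FPKM. With DMSO, Myc had the highest mean of the 13 family genes, 27.5 FPKM (35.7 and 19.4), followed by Mlx with 24.1 FPKM (19.1 and 29.1). These first 2 did not differ beyond their spread. Mga, Mlxip, Max and Mxi1 came next, with means between 15.6 and 12.5 FPKM. Mga stood clear of the others, and the range of Mxi1 covered those of Max and Mlxip. Below them came Mxd3, Mnt, Mxd4 and Mxd1, with means from 8.63 to 5.70 FPKM and overlapping ranges. With HU-308, Myc was in place 8 by its mean, at 9.32 FPKM (12.7 and 5.92). Its range covered those of Mnt, Mga and Mxi1 and overlapped those of Max and Mxd1, so its place differed between the libraries. Mxd3, Mlx and Mxd4 led, with means of 18.1, 17.8 and 16.7 FPKM and overlapping ranges, and Mlxip, Max and Mnt followed at 13.4, 12.4 and 11.7 FPKM. Mycn, Mycl and Mlxipl stayed under 1 FPKM in every library.

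Set side by side per length, the MXD genes and Mnt together came to 38.6 and 46.1 FPKM with DMSO and 55.5 and 63.1 FPKM with HU-308. The 3 MYC genes together came to 36.8 and 19.7 FPKM with DMSO and 13.3 and 6.21 FPKM with HU-308. The ratio of the former to the latter was 1.05 and 2.34 with DMSO and 4.18 and 10.2 with HU-308. Within each group the ratio differed more than 2-fold between replicates, and as a score over chosen genes it was given no test. Without Mxd3, whose counts are less certain, it was 0.778 and 1.97 with DMSO and 2.81 and 7.27 with HU-308, and the replicates again differed more than 2-fold. Mxd3 made up 25.7% and 15.9% of the MXD and Mnt sum with DMSO and 32.8% and 28.4% with HU-308. Mxd4 made up 11.8% and 22.1% of it with DMSO and 23.5% and 32.3% with HU-308, Mxi1 made up 36.9% and 23.4% and then 17.7% and 9.99%, and the share of Mnt stayed between 18.9% and 20.5%. The ratio of Max to the MYC genes was 0.343 and 0.672 with DMSO and 0.861 and 2.15 with HU-308.

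**Figure D3:**
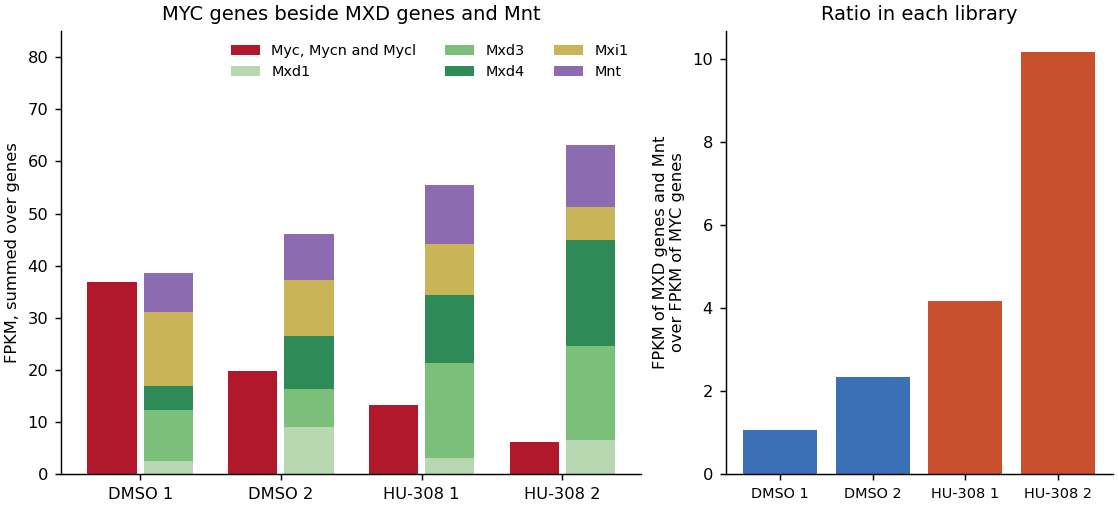
Left, summed FPKM of the 3 MYC genes (red) beside the stacked FPKM of the MXD genes and Mnt in each library; right, their ratio. It is 1.05 and 2.34 with DMSO and lies above both, at 4.18 and 10.2, with HU-308.

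The E-box to which MAX and MLX dimers bind was looked for near the genes' own starts, since family members can be bound by each other's products. The letters CACGTG, which read the same on both strands, were searched from 250 bases before to 50 bases after each RefSeq start (GRCm38.p6). Of 9 members with an entry, 4 held it: Max, Mxd4, Mnt and Mlx. Myc had no entry, so its own start was not searched. Of all 27025 genes in the table of promoters, 8.09% held it in at least 1 promoter, and of the 9858 tested genes found there 11.8%. The 4 sites are shown with 12 bases on either side, on the strand of the gene and with the E-box in capitals.
Mxd4, chr5:34187912-34187941, minus strand: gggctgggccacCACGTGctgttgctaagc
Mnt, chr11:74830789-74830818, plus strand: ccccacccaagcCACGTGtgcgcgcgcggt
Max, chr12:76962234-76962263, minus strand: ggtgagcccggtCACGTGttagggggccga
Mlx, chr11:101087238-101087267, plus strand: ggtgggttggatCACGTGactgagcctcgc
The E-box began 219 bases before the start in Mxd4, 123 in Mnt, 40 in Mlx and 3 in Max. Mxd4 and Mnt were the 2 members whose values were higher with HU-308 in both libraries, while Max had overlapping groups and Mlx was lower. A match of letters is a description and not a bound site.

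Genes known to be activated by MYC had log2 fold changes below 0 in 43 of 55 cases, although none of them passed the edgeR threshold. Of 57 such genes, mostly of ribosome production, growth and the cell cycle, 55 were tested. By edgeR 0 were called higher, against 0.0838% of all tested genes, and 0 lower, against 0.231%. At an unadjusted edgeR p under 0.05, 36 were lower, against 9.97% of all tested genes, and 2 higher (Dusp2 and Sord), against 8.79%. DESeq2 called 24 lower, against 3.81% of its tested genes, and none higher. Both HU-308 libraries lay below both DMSO libraries for 39 of them, against 25.4% of all tested genes. They lay above for 4, against 25.9%. The summed level of the 57 genes was 6957 and 5184 CPM with DMSO and 4441 and 3490 CPM with HU-308, the same order of libraries as for Myc and for the mitochondrial transcripts, whose part was not tested. Their median log2 fold change was −0.75, beside 0.02 for all tested genes, with a range of −2.80 to 0.84. The median of the list was −0.49 without DMSO replicate 1. Above 0 were 12 of the 55, among them the cell cycle genes Plk4 (0.014), Cdk4 (0.051), Mcm4 (0.13), Mcm5 (0.21) and Plk1 (0.31). Hk2, the hexokinase of activated cells, had 177.9 and 200.5 CPM with DMSO and 36.8 and 17.7 CPM with HU-308 (log2 fold change −2.80 ± 0.35 SE, edgeR adjusted p = 0.0575). Rrp12, a factor of ribosome assembly, had 116.8 and 85.2 CPM with DMSO and 32.9 and 27.2 CPM with HU-308 (−1.75 ± 0.21 SE, edgeR adjusted p = 0.0519). The ribosome assembly factors Wdr43 and Mphosph10 had log2 fold changes of −1.29 ± 0.17 SE and −1.19 ± 0.17 SE (edgeR adjusted p = 0.0646 and 0.0664). Of 52 genes of this list with a promoter entry, 15 held CACGTG, or 28.8%, against 11.8% of tested genes. Since the list was made of genes already known as activated by MYC, that share describes the list and not these libraries.

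The list of transporters and enzymes that activated T cells express through MYC held 11 genes, all tested. Every log2 fold change in it was below 0, and the median was −0.44, beside 0.02 for all tested genes. An unadjusted edgeR p under 0.05 was found for 6, against 9.97% of all tested genes. None passed the adjusted threshold, which 0.231% of all tested genes passed on the lower side. DESeq2 called 4 of them lower, against 3.81% of its tested genes. Odc1, the first enzyme of polyamine synthesis, had 293.1 and 190.4 CPM with DMSO and 125.1 and 83.8 CPM with HU-308 (log2 fold change −1.21 ± 0.28 SE, edgeR adjusted p = 0.126). The amino acid transporter Slc7a5 went from 330.1 ± 33.8 to 190.1 ± 32.8 CPM (−0.80 ± 0.17 SE, edgeR adjusted p = 0.115). The transferrin receptor Tfrc went from 391.4 ± 130.1 to 191.7 ± 20.1 CPM (−1.03 ± 0.25 SE, edgeR adjusted p = 0.132). The 6 genes that MYC represses had a median of −0.0049 and split, with no edgeR call. By unadjusted edgeR p under 0.05, 1 was higher, against 8.79% of all tested genes, and 2 were lower, against 9.97%. DESeq2 called 1, Ndrg2, lower, against 3.81% of its tested genes. The cell cycle inhibitor Cdkn1b was higher (63.1 and 98.0, then 117.7 and 161.8 CPM), while the inhibitor Cdkn1a was lower (156.2 and 166.2, then 108.5 and 134.9 CPM) and Ndrg2 had a log2 fold change of −1.11 ± 0.33 SE. Gadd45a was near 1 CPM.

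**Figure D4:**
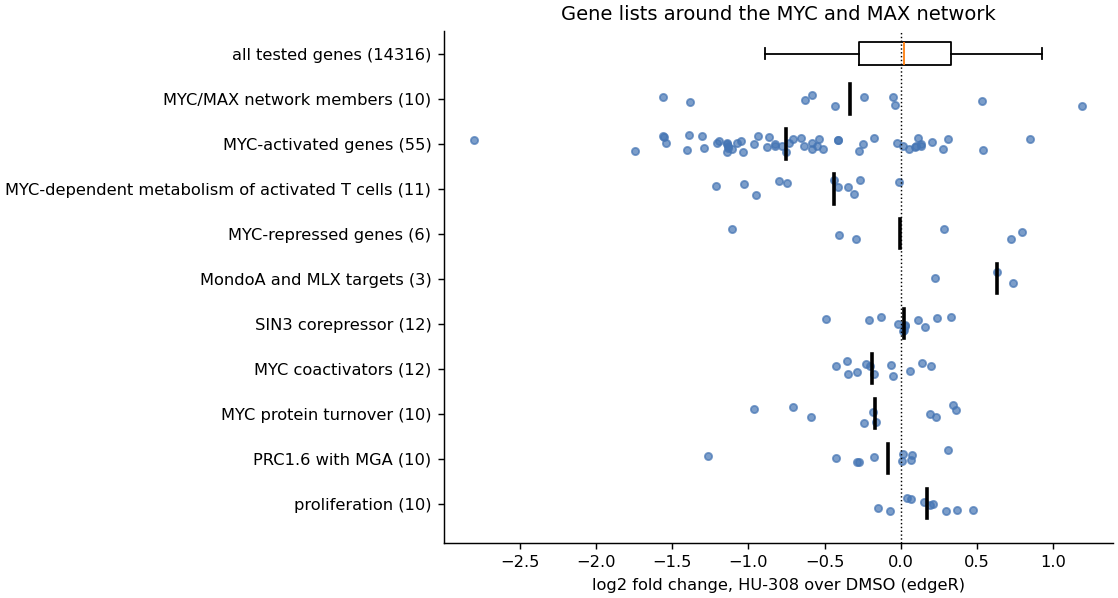
Log2 fold change (edgeR, HU-308 over DMSO) of each tested gene in the lists around the network, with list medians as black bars, and a box for all 14316 tested genes (quartiles, whiskers at percentiles 5 and 95). The MYC-activated genes centre at −0.75 and those of T cell metabolism at −0.44, while SIN3, cofactor and dividing-cell lists lie near 0. The bar of the 10 members includes Mycn.

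Likeness to Myc was measured as the root mean square difference of log2 CPM, centred on each gene's mean, over the 4 libraries. Among 5740 genes at or above a mean log2 CPM of 5, the 5 most like Myc were Srm (0.0893), Shmt1 (0.111), Gnl3 (0.152), Armcx4 (0.176) and Tgm2 (0.190). Srm, the spermidine synthase, had 105.9 and 60.6 CPM with DMSO and 36.3 and 20.2 CPM with HU-308, so that its replicates differed as those of Myc did. Srm and Gnl3, which encodes the nucleolar protein nucleostemin, were in the list of MYC-activated genes, and Shmt1 is an enzyme of one-carbon metabolism. Genes picked for likeness to Myc are lower with HU-308, as most of that list were, so this membership is not a separate result. With 4 libraries the ranking is a description.

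Cofactor genes had log2 fold changes nearer to 0. The SIN3 corepressor list had a median log2 fold change of 0.02 over 12 genes, within −0.49 (the deacetylase Hdac2) and 0.33 (Suds3). It had no call by edgeR or DESeq2. By unadjusted edgeR p under 0.05, 1 gene was higher, against 8.79% of all tested genes, and 1 was lower, against 9.97%. The MYC coactivator list had a median of −0.19 over 12 genes, with none called by edgeR or DESeq2 and none at an unadjusted edgeR p under 0.05. The helicase genes Ruvbl2 and Ruvbl1 were at −0.42 and −0.34, and Bptf and Hcfc1 at −0.23 and −0.20. Of 10 genes that set the stability of MYC protein, 3 had an unadjusted edgeR p under 0.05, all lower with HU-308, against 9.97% of all tested genes. None was called by edgeR and 2 were by DESeq2, against 3.81% of its tested genes. Pim1, a kinase that stabilises MYC, had 431.8 and 541.8 CPM with DMSO and 248.4 and 252.1 CPM with HU-308 (log2 fold change −0.96 ± 0.16 SE, edgeR adjusted p = 0.0804; DESeq2 adjusted p = 0.000438). Usp36, a nucleolar deubiquitinase of MYC, went from 118.1 ± 2.15 to 72.3 ± 1.70 CPM (−0.71 ± 0.13 SE, edgeR adjusted p = 0.0893), and the ubiquitin ligase Huwe1 went from 1028 ± 111.7 to 685.0 ± 50.4 CPM (−0.59 ± 0.15 SE, edgeR adjusted p = 0.148).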

How the data were processed

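Labels place 2 libraries in each group. Per the labels' protocols, RNA was extracted with TRIzol and libraries made with a SMARTER mRNA-seq kit. Per the submitters' processing notes, Bowtie2 2.3.4.3, RSEM 1.3.1, DESeq2 1.4.5 and GRCm38 (mm10) were used; the role of each tool, the annotation release and the strand setting are not given in the sources used here. The deposited counts are, per the file headers, unscaled whole-number read counts per gene. FPKM columns, as deposited, divide each count by gene length and by a scaled depth that the authors set for each library. The deposited signal columns are the authors' group means of scaled counts. The log2 fold change is the authors' own, HU-308 over DMSO, in the deposited table, as are the p-values.

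Counts were fitted in R 4.3.3 with edgeR 4.0.16 (filterByExpr with minimum count 10 and minimum total 15, TMM, quasi-likelihood F test without pairing, Benjamini-Hochberg over 14316 genes). SE is the absolute log2 fold change over the square root of F, and 95% intervals use the fit's total degrees of freedom. Alternatives used DESeq2 1.42.0, limma 3.58.1 (voom, or log2 FPKM with a pseudocount of 1 or 0.1), other scaling and filters, a replicate block and each library left out. The test was tried on simulated counts drawn independently for each library, so deviations shared by same-numbered libraries were not part of that trial. Named genes are the 10 members, 3 relatives, Pvt1, up to 4 genes of each list by smallest unadjusted p, and the 5 genes most like Myc. Dusp2, Sord and the cell cycle genes Plk4, Cdk4, Mcm4, Mcm5 and Plk1 were added after their values were seen. The result of 1 list gene is not reported here. Members and lists were chosen with earlier results of these data known, and lists share a few genes (Cbx3, Wdr5). Exon overlaps are from GENCODE mouse release 21, which gives 12 of 13 family genes the same coordinates as the deposited table. E-box sites are from RefSeq promoters. Plots used matplotlib 3.10.9 under Python 3.11.15.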

Additional observations from a re-analysis of the deposited data

How the results depend on the processing

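Over the 14 alternatives, Myc, Mxd4, Mxi1, Mnt, Mga and Mlx kept their direction in each. The main count of called genes, 12 higher and 33 lower, was 190 and 371 without a low-count filter, 244 and 483 with DESeq2, and 0 and 0 with limma on log2(FPKM + 1) or log2(FPKM + 0.1). It was 8 and 20 with at least 1 CPM in 2 libraries. Scaled by library size only, 12 were lower, and the median log2 fold change of all genes moved by 0.118, so that Max went to 0.067 and Mlxip to 0.082, both within that shift. Leaving out 1 library gave 10 to 93 genes higher and 27 to 244 lower, and 0 to 1 members higher and 0 to 1 lower. Members called were 1 higher with DESeq2, and 1 lower with DESeq2 or without a low-count filter (Myc). Log2 fold changes without 1 library ran from −0.18 to 0.067 for Max, from −0.92 to 1.0 for Mxd1, from −0.093 to 0.0044 for Mlxip and from −1.42 to 2.40 for Mycl. Some list medians changed sign without 1 library. They ran from −0.36 to 0.13 for PRC1.6 and from −0.18 to 0.24 for MYC-repressed genes. For SIN3 the range was −0.072 to 0.11, and for dividing-cell genes −0.078 to 0.36. The median of MYC coactivators ran from −0.21 to −0.097. Mycl was also at 0.39 with limma-voom and at 0.022 with limma on log2(FPKM + 0.1). The cause of these differences was not tested.

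Libraries of the same number share only that number in the labels. Their deviations from the group means had a correlation of 0.465 over 14316 genes, and 9 of 10 members had replicates in the same order in both groups. With a replicate block, edgeR called 2394 genes higher and 2445 lower (16.7% and 17.1% of those tested), among them 2 members higher (Mxd4 and Mnt) and 4 lower (Myc, Mxi1, Mga and Mlx). That fit has 1 residual degree of freedom per gene and rests on a pairing that the labels do not state. Counting error limits Mycn, Mycl and Mlxipl, which had under 100 reads in every library.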
